A study of Mus musculus with 59 samples.

Results

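The genes described here are 9 of the 47643 genes in the deposited table, namely Tnmd, Kera, Chad, Comp, Fmod, Thbs4, Scx, Mkx and Cilp2. They were taken by symbol as genes of tendon and of its junction with muscle. The list was chosen by measured values, namely the fold changes with the cachectic melanoma in soleus and the differences of that fold change between muscles, so these comparisons are given below as a description. Counts of genes called by limma in them stand beside the share of all genes called, were partly fixed by the choice of the list, and support nothing. All 9 symbols were found, and the limma fits kept 9 of them in soleus and in the fit of the 3 muscles together, and 7 of them in diaphragm and in tibialis anterior, where Mkx and Cilp2 were mostly below 1 TPM.

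Tendon is built by tenocytes, fibroblast-like cells that lay down parallel collagen fibres and a set of smaller proteins that organise them. Scleraxis, encoded by Scx, and Mohawk, encoded by Mkx, are transcription factors of the tendon lineage, and tenomodulin, encoded by Tnmd, is a membrane protein widely used as a marker of mature tenocytes. The secreted proteins of the list fall into the leucine-rich proteins fibromodulin (Fmod), keratocan (Kera) and chondroadherin (Chad), the thrombospondins Comp and Thbs4, and Cilp2, a protein related to the cartilage intermediate layer protein. At the myotendinous junction these proteins meet the integrins and the cytoskeleton of the muscle fibre.

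RNA was sequenced from muscles of female NCI Ath/nude mice aged 4 months, and every animal carried a patient-derived melanoma xenograft in the flank. One xenograft causes cachexia, the wasting of muscle and body mass in cancer, and the other does not, so that each condition rests on 1 tumour line and no tumour-free mice were compared. Diaphragm was sampled in 4 groups, with 9 libraries of non-cachectic and 10 of cachectic mice after mock injection, and 10 each after rFibcd1, the recombinant mouse form of the secreted protein Fibcd1. Mock injection was bovine serum albumin in saline, and both were given into the peritoneum. The tibialis anterior, a fast muscle of the shin, and the soleus, a slow muscle of the calf, were each sampled in 5 non-cachectic and 5 cachectic mice, for which the labels give no injection. The methods describe trimming of tendon away from the muscle for the diaphragm, and the handling of limb muscles at their tendons is not given in the sources used here.

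Values are TPM, transcript levels corrected for gene length and set to the same total in each library. They keep no read counts, so the depth of each library is unknown. Between 17950 and 19456 genes had a value above 0 across the diaphragm samples, against 16436 to 17673 in tibialis anterior and 17514 to 18191 in soleus. The pseudogene Pcna-ps2 split the libraries into 36 at 5.60 to 22.8 TPM and 23 at 0 to 0.428 TPM (here called the high and the low state). All 10 cachectic limb libraries were in the high state and all 10 non-cachectic ones in the low state, so that in the limbs an effect of melanoma and one of state cannot be told apart. In diaphragm the high state held 9 of 10 cachectic and 3 of 9 non-cachectic mock libraries, and 8 of 10 and 6 of 10 after rFibcd1. As a check of the muscle labels, Myh7, the slow myosin, was at 4945 TPM in non-cachectic soleus and 0.849 TPM in tibialis anterior. In bulk RNA, fewer cells of a type and less RNA per cell cannot be told apart.

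The promoters of 4 of the genes with the widest differences described below are shown, each with 250 bases before and 50 bases after the start of transcription in RefSeq on GRCm38.p6, read 5′ to 3′ on the strand of the gene. Capitals mark the E-box letters CANNTG, the core to which basic helix-loop-helix factors such as scleraxis bind. The windows are chrX:133850758-133851057 on the plus strand for Tnmd, chr10:97606955-97607254 on the plus strand for Kera, chr11:94564797-94565096 on the plus strand for Chad and chr8:69887343-69887642 on the minus strand for Cilp2.
Tnmd: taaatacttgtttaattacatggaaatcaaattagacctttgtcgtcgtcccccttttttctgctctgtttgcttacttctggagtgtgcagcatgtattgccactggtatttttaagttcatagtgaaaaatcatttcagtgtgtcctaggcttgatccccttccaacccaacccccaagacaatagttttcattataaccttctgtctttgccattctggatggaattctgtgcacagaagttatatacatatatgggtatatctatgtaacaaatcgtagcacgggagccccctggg
Kera: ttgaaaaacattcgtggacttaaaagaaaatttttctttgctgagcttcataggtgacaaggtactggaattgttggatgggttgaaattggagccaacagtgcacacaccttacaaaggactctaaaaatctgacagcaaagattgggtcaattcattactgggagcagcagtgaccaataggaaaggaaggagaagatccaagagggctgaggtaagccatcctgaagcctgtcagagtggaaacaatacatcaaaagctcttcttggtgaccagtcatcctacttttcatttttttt
Chad: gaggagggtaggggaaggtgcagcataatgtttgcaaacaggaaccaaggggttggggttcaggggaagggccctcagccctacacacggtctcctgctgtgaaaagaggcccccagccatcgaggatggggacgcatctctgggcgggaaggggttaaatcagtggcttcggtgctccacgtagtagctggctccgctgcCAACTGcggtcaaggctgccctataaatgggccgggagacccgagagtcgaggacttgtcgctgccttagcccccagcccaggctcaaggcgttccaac
Cilp2: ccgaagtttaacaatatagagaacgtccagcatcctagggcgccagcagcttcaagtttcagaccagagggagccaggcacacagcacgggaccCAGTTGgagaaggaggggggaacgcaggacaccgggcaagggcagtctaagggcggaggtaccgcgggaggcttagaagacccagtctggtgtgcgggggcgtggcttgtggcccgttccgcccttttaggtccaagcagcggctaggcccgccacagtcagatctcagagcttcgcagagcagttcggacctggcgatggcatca
Promoter windows were matched for 6 of the 9 genes, and those of Comp, Scx and Mkx are named only. CANNTG, searched on both strands, was absent from the Tnmd and Kera windows, present 1 time in those of Chad, Cilp2 and Fmod, and present 2 times in that of Thbs4, while 72.3% of 32851 such windows of the genome hold it. The match in Fmod reads CATCTG, a form that with its reverse complement CAGATG occurs in 17.2% of windows. Chad also holds a TATAAA, as do 13.6% of windows. These matches describe letters and not binding. The genes lie apart in the genome, with Cilp2 (chr8:69880369-69887687) and Comp (chr8:70373558-70382066) the nearest to each other, in the positions of GENCODE M21 on GRCm38.

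Non-cachectic soleus stood above the other muscles for these genes. Comparing lowest with highest libraries, all 5 non-cachectic soleus libraries exceeded every diaphragm and tibialis anterior library for 8 of the 9 genes, the exception being Scx. These levels include the samples that chose the list and are a description. Tnmd averaged 61.2 ± 8.79 TPM (SD, n = 5) in non-cachectic soleus, 6.20 ± 1.92 TPM (SD, n = 9) in non-cachectic mock diaphragm and 5.60 ± 2.27 TPM (SD, n = 5) in non-cachectic tibialis anterior.

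Soleus was higher than tibialis anterior by a ratio of mean TPM between 4.83 for Thbs4 and 27.0 for Comp, with 24.2 for Chad, 15.1 for Mkx and 10.9 for Tnmd. Against diaphragm the ratio ran from 2.46 for Thbs4 to 21.8 for Cilp2. The ranges of all 9 genes were separate in both comparisons. Ranges were separate in the same direction for 69.5% of all genes between soleus and tibialis anterior, and for 18.1% between soleus and diaphragm. Limma called all 9 higher in soleus than in tibialis anterior, where 63.9% of genes were called in that direction, and all 9 lower in diaphragm than in soleus, where 22.1% were.

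Within non-cachectic soleus the most abundant of the genes was Fmod at 289 ± 40.5 TPM, followed by Thbs4 at 174 ± 14.9 TPM. Chad at 68.1 ± 22.4 TPM, Tnmd at 61.2 ± 8.79 TPM and Comp at 60.0 ± 10.7 TPM were next, with overlapping ranges. Kera (25.2 ± 2.43 TPM), Scx (19.0 ± 2.46 TPM), Cilp2 (14.1 ± 3.81 TPM) and Mkx (3.18 ± 0.689 TPM) followed (SD, n = 5 each), and TPM, being per length, allows this order between genes. Cachectic tibialis anterior was the lowest of the 8 groups for Tnmd, Kera, Chad, Fmod, Thbs4 and Cilp2, and the neighbouring groups at the low end overlapped for each of them.

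**Figure D1:**
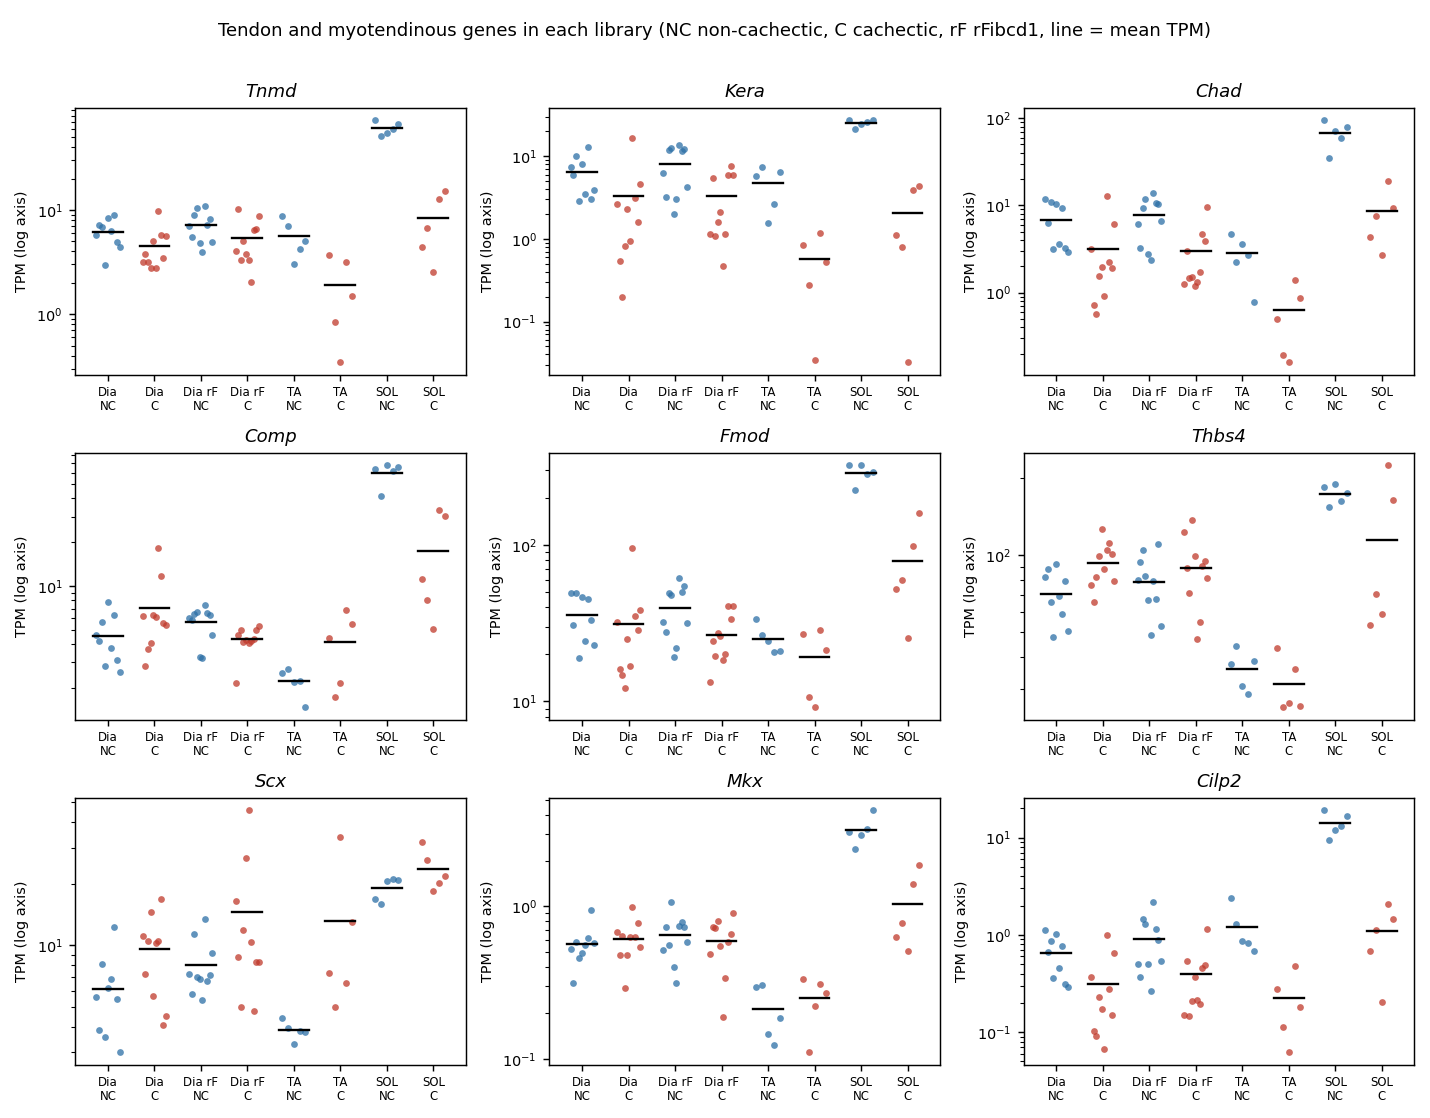
TPM of each of the 9 genes by library on a log axis, for the 8 groups of muscle, melanoma and injection. Non-cachectic soleus is the highest group for 8 genes, as for Tnmd at 51.7 to 72.5 TPM, and cachectic soleus is highest for Scx.

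The first question was how the cachectic melanoma changed these genes in soleus. Of the 9 genes, 8 had a lower mean in cachectic than in non-cachectic soleus, and the ranges of 7 were separate. Mean TPM was lower by a factor of 12.8 for Cilp2, 12.3 for Kera, 7.94 for Chad and 7.37 for Tnmd, while Scx was not lower. The comparison chose the list, so these values are a description.

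Tnmd, the membrane marker of tenocytes, was at 72.5, 51.7, 54.1, 60.2 and 67.4 TPM in the 5 non-cachectic soleus libraries and at 4.43, 6.65, 2.54, 12.6 and 15.3 TPM in the 5 cachectic ones. Every cachectic library was far below every non-cachectic one, and the log2 fold change on the log2(TPM + 1) scale was -2.95 (SE 0.35).

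Keratocan, a keratan sulfate proteoglycan best known from cornea, was at 27.3, 21.5, 24.3, 25.8 and 27.2 TPM in non-cachectic soleus. In cachectic soleus Kera was at 1.12, 0.799, 0.0320, 3.94 and 4.34 TPM. The third of these libraries held almost no Kera, and the log2 fold change of -3.37 (SE 0.38) was the lowest of the 11957 genes fitted in soleus.

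Chondroadherin, a leucine-rich matrix protein that binds collagen and cells, was at 94.9, 35.1, 72.0, 59.7 and 78.9 TPM without cachexia and at 4.30, 7.52, 2.68, 19.0 and 9.38 TPM with it. The second non-cachectic library was lowest of its group and still above all cachectic ones, with a log2 fold change for Chad of -3.02 (SE 0.41).

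Cilp2 was at 19.1, 9.53, 12.03, 13.3 and 16.8 TPM in the non-cachectic and 0.675, 1.12, 0.203, 2.07 and 1.46 TPM in the cachectic libraries. The gap between the groups was wide, with a log2 fold change of -2.88 (SE 0.25).

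Fibromodulin, which binds collagen fibrils and shapes their assembly, was at 323, 224, 322, 281 and 294 TPM and, with cachexia, at 52.0, 60.0, 25.5, 98.4 and 161 TPM. The ranges did not overlap, and the log2 fold change of Fmod was -2.09 (SE 0.38).

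Of the thrombospondins, Comp was at 64.1, 41.3, 67.6, 61.8 and 65.4 TPM in non-cachectic soleus and at 11.2, 7.97, 5.04, 33.1 and 30.2 TPM in cachectic soleus. The fourth and the fifth cachectic library lay well above the other three, and the log2 fold change was -2.02 (SE 0.43). Thbs4, which is made at the myotendinous junction and in tendon, was at 185, 154, 191, 163 and 175 TPM against 53.4, 70.3, 58.8, 225 and 165 TPM. Here the fourth cachectic library was the highest of all 10, so the groups overlapped, and the log2 fold change of -0.84 (SE 0.35) was not called.

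The transcription factors parted. Mkx was at 3.06, 2.39, 2.95, 3.24 and 4.28 TPM and, with cachexia, at 0.628, 0.779, 0.509, 1.39 and 1.86 TPM, without overlap and with a log2 fold change of -1.07 (SE 0.18). Scx was at 16.9, 15.9, 20.5, 21.2 and 20.7 TPM and, with cachexia, at 31.8, 26.0, 18.5, 20.2 and 21.8 TPM. These groups overlapped, and the log2 fold change of Scx was 0.28 (SE 0.14), not called.

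As the choice of the list would have it, limma called 7 of the 9 genes lower at an adjusted p under 0.05, the exceptions being Thbs4 and Scx. Over all genes 25.1% were called, 17.5% higher and 7.54% lower. Separate ranges with cachexia lower were seen for 5.40% of all genes. Mkx and Cilp2 reached 1 TPM in all 5 non-cachectic libraries but in 2 and 3 of the cachectic ones, and so entered the fit through the group in which they were high. The median log2 fold change was -2.09 over the 9 genes and 0.09 over all genes.

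The second cachectic soleus library held the fast myosin Myh4 at 4989 TPM, against 31.2 to 69.8 TPM in the other 4 and 7.34 to 24.9 TPM in non-cachectic soleus. Without it the same number of genes, 7, were called. All 9 genes in it lay within the range of the other cachectic libraries. Without the fourth cachectic library, Thbs4 was called as well, with a log2 fold change of -1.14.

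In tibialis anterior the cachectic melanoma went with less Kera, Tnmd and Chad and with more Scx. Mean TPM was lower by a factor of 8.38 for Kera, 5.44 for Cilp2, 4.50 for Chad and 2.95 for Tnmd, and higher by 3.41 for Scx. As above, these values are a description. In the same libraries 4 of 7 muscle fibre genes were called lower (Acta1, Myh1, Myh2 and Mb), Myh7 was called higher, and 4 of 6 Schwann cell markers were called higher, against 3.78% of all genes called lower and 56.4% called higher, and their part in these values was not tested.

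Kera was at 5.78, 7.39, 1.57, 2.66 and 6.49 TPM in non-cachectic and at 0.834, 0.277, 0.0342, 1.19 and 0.519 TPM in cachectic tibialis anterior. The ranges were separate, and the log2 fold change was -1.79 (SE 0.32).

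Tnmd was at 8.72, 7.02, 3.02, 4.19 and 5.03 TPM against 3.69, 0.839, 0.345, 3.13 and 1.50 TPM, with a log2 fold change of -1.27 (SE 0.34). Chad was at 4.76, 2.27, 3.62, 2.68 and 0.782 TPM against 0.500, 0.193, 0.159, 1.41 and 0.870 TPM, with a log2 fold change of -1.19 (SE 0.29). For both genes the highest cachectic library reached into the non-cachectic range.

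Scx was at 4.41, 3.95, 3.30, 3.80 and 3.77 TPM without and at 7.35, 4.99, 33.7, 6.55 and 12.9 TPM with cachexia. Every cachectic library was above every non-cachectic one, and the third stood far above the rest. The log2 fold change of Scx was 1.22 (SE 0.38), and 0.82 without that library. After median-ratio scaling, which moved the median of all genes from 0.41 to -0.01, Scx was at 0.78 and was no longer called.

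Cilp2 was at 2.37, 1.29, 0.869, 0.831 and 0.688 TPM and, with cachexia, at 0.280, 0.113, 0.0618, 0.472 and 0.182 TPM, again with separate ranges, but fell under the filter. Comp was at 2.22 ± 0.477 TPM and 4.13 ± 2.19 TPM, Fmod at 25.2 ± 5.37 TPM and 19.3 ± 9.07 TPM, and Thbs4 at 35.9 ± 6.24 TPM and 31.4 ± 8.08 TPM (SD, n = 5 each). None of these 3 was called, at 0.57 (SE 0.27), -0.48 (SE 0.29) and -0.21 (SE 0.17) on the log2 scale, and Mkx stayed low at 0.211 ± 0.0849 TPM and 0.249 ± 0.0887 TPM. Without the second or the third cachectic library Comp was called higher, at 0.77 and 0.71. Over the other settings Comp ran from 0.19 to 0.71 and was called in 1 of 7. Fmod ran from -0.95 to -0.40, called in 0 of 8, and Thbs4 from -0.69 to -0.21, called in 1 of 8.

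Of the 7 genes fitted in tibialis anterior, 3 were called lower and 1 higher. The background was 60.2% called, of which 56.4% of all genes were called higher and 3.78% lower. Separate ranges were found for 2.55% of genes with cachexia lower, as for Kera and Cilp2, and for 49.1% with cachexia higher, as for Scx.

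In mock-injected diaphragm the differences were smaller, and every range overlapped, with separate ranges for 4.33% of all genes in the higher and 0.270% in the lower direction. Kera and Chad were the 2 genes called lower, of 7 fitted, against 33.5% of all genes called, 30.9% higher and 2.67% lower. These values too are a description. Kera ran from 2.85 TPM over a median of 6.00 TPM to 12.8 TPM in the 9 non-cachectic libraries, and from 0.199 over 1.94 to 16.6 TPM in the 10 cachectic ones. Chad ran from 2.94 over 6.29 to 11.8 TPM and, with cachexia, from 0.562 over 1.95 to 12.8 TPM. For each gene 7 of 10 cachectic libraries were below every non-cachectic library and 9 of 10 were below the non-cachectic median. Of markers of other cells in these libraries, 3 of 6 of Schwann cells and 1 of 6 of adipocytes were called higher, 2 of 7 muscle fibre genes were called higher and 1 lower, and 0 of 10 of fibroblasts were called by limma or had an unadjusted p under 0.05. The adipocyte markers had a median log2 fold change of 1.12. Of them 4 of 6 had an unadjusted p under 0.05 in limma, as did at least the 33.5% of all genes called. The part of these cells in the values of Kera and Chad was not tested.

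The remaining cachectic library, number 7 of its group and the one in the low state, held the group maximum of Kera, Chad, Tnmd (9.73 TPM), Fmod (94.7 TPM) and Comp (18.4 TPM). The next highest values were 4.56 TPM for Kera, 6.06 TPM for Chad and 5.74 TPM for Tnmd. Log2 fold changes were -1.12 (SE 0.41) for Kera and -1.09 (SE 0.36) for Chad, and without library 7 they were -1.40 and -1.32. Kera was no longer called without any 1 of 8 other libraries, cachectic 2, 3, 4 or 6 or non-cachectic 1, 3, 5 or 7, at -1.08 to -0.97.

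Library state went with both genes, though not in one direction. Among the non-cachectic mock libraries Kera averaged 3.49 TPM in the 3 high-state and 7.87 TPM in the 6 low-state libraries, and Chad 3.28 TPM and 8.63 TPM. In cachectic rFibcd1 diaphragm the order was the other way, with Kera at 3.89 TPM in 8 high-state and 0.809 TPM in 2 low-state libraries and Chad at 3.33 TPM and 1.52 TPM. In mock diaphragm, with state as a term the log2 fold changes were -0.75 for Kera and -0.67 for Chad, and among high-state libraries alone -0.81 and -0.60. Neither was called in these fits.

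The other genes of mock diaphragm were not called, although Thbs4 was called higher in 3 of 11 other settings and without any 1 of 8 libraries (cachectic mock 1 or 2, non-cachectic mock 2 or 5, cachectic rFibcd1 4, 6 or 7, or non-cachectic rFibcd1 6), at 0.41 to 0.47, and Comp and Tnmd were called without 1 library each, cachectic mock 2 (0.54) and 7 (-0.53). Tnmd had medians of 6.29 TPM and 3.58 TPM in non-cachectic and cachectic libraries, Fmod 33.3 TPM and 26.8 TPM, and Cilp2 0.665 TPM and 0.201 TPM. Thbs4 had medians of 69.5 TPM and 94.1 TPM, Scx 5.56 TPM and 10.4 TPM, and Comp 4.16 TPM and 5.81 TPM. The first set leaned lower and the second higher with cachexia, with log2 fold changes of -0.41 (SE 0.22) for Tnmd, -0.35 (SE 0.28) for Fmod, 0.41 (SE 0.17) for Thbs4, 0.55 (SE 0.29) for Scx and 0.43 (SE 0.21) for Comp. Mkx was at 0.563 ± 0.167 TPM and 0.614 ± 0.189 TPM (SD, n = 9 and n = 10).

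The same melanoma contrast was made in the rFibcd1-injected diaphragms, which are other libraries. The genes were chosen with earlier results of all these data known, and the fit shares its variance with the mock libraries, so the values are not independent support for the contrast after mock injection. Chad fell with cachexia. It ran from 2.37 over a median of 8.06 to 13.9 TPM in the 10 non-cachectic and from 1.19 over 1.62 to 9.56 TPM in the 10 cachectic libraries. Of the cachectic libraries, 6 of 10 were below every non-cachectic one and 9 of 10 below the non-cachectic median. The log2 fold change was -1.17 (SE 0.35) with an adjusted p of 0.0310 from limma, and Chad was the 1 gene called of 7, against 9.11% of all genes called and 1.97% called lower.

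Kera ran from 2.02 over 8.99 to 13.9 TPM and, with cachexia, from 0.476 over 1.86 to 7.71 TPM. All 10 cachectic libraries were below the non-cachectic median, but the limma test missed its threshold, with a log2 fold change of -1.14 (SE 0.40) and an adjusted p of 0.0623. Adjusted p-values of the other genes in limma ran from 0.199 to 0.596, with log2 fold changes of -0.42 for Tnmd, -0.55 for Fmod, -0.31 for Comp, 0.15 for Thbs4 and 0.52 for Scx. Cilp2, not fitted, had medians of 0.710 TPM and 0.293 TPM.

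The call for Chad held in 6 of 11 other settings, and not by the Dunn test or with only the groups compared. It was lost without any 1 of 9 of the 39 libraries, namely cachectic rFibcd1 libraries 1, 3, 4 and 5 and non-cachectic rFibcd1 libraries 3, 4, 7, 8 and 9, with limma adjusted p from 0.0510 to 0.0687. Among high-state libraries alone the log2 fold change of Chad was -0.75 and that of Kera -0.52, and neither was called. Kera was called without any 1 of 7 libraries, at -1.29 to -1.14, namely cachectic rFibcd1 2, 8, 9 or 10, non-cachectic rFibcd1 5 or 6 and cachectic mock 7.

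Next, rFibcd1 was compared with mock injection, a question of whether the protein moved these genes. None of the 7 genes fitted was called in cachectic diaphragm, where 0.0447% of all genes were, and none in non-cachectic diaphragm, where 0.417% were. At an unadjusted p under 0.05 limma counted 1 gene, Comp, in cachectic and 0 in non-cachectic diaphragm, and the Dunn test called 0 in each. The shares above are after adjustment. That of all genes at the unadjusted threshold is not given here, so the unadjusted counts cannot be set against it. Mean TPM in cachectic diaphragm after mock and after rFibcd1 was 3.33 ± 4.86 and 3.27 ± 2.69 for Kera, 3.19 ± 3.72 and 2.97 ± 2.63 for Chad, and 4.52 ± 2.15 and 5.34 ± 2.60 for Tnmd (SD, n = 10 each).

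Comp in cachectic diaphragm was at 7.03 ± 4.66 TPM after mock and 4.30 ± 0.865 TPM after rFibcd1 (SD, n = 10 each). Its log2 fold change was -0.45 (SE 0.20) with a limma adjusted p of 0.438, and -0.29 without cachectic mock library 7. The interaction of melanoma and rFibcd1 called 0 of the 7, against 0.0223% of all genes, with 1 gene at an unadjusted p under 0.05, again Comp, at -0.74 (SE 0.29) and a limma adjusted p of 0.548. Here too the share of all genes at the unadjusted threshold is not given. For Kera the interaction was -0.02 (SE 0.57) and for Chad -0.08 (SE 0.51). Over 9 other settings it ran from -0.26 to 0.82 for Kera and from -0.36 to 0.53 for Chad, called in 0 of them. The rFibcd1 effect on Kera in cachectic diaphragm was 0.20 and ran from 0.10 to 0.89 over 11 other settings, also called in 0.

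**Figure D2:**
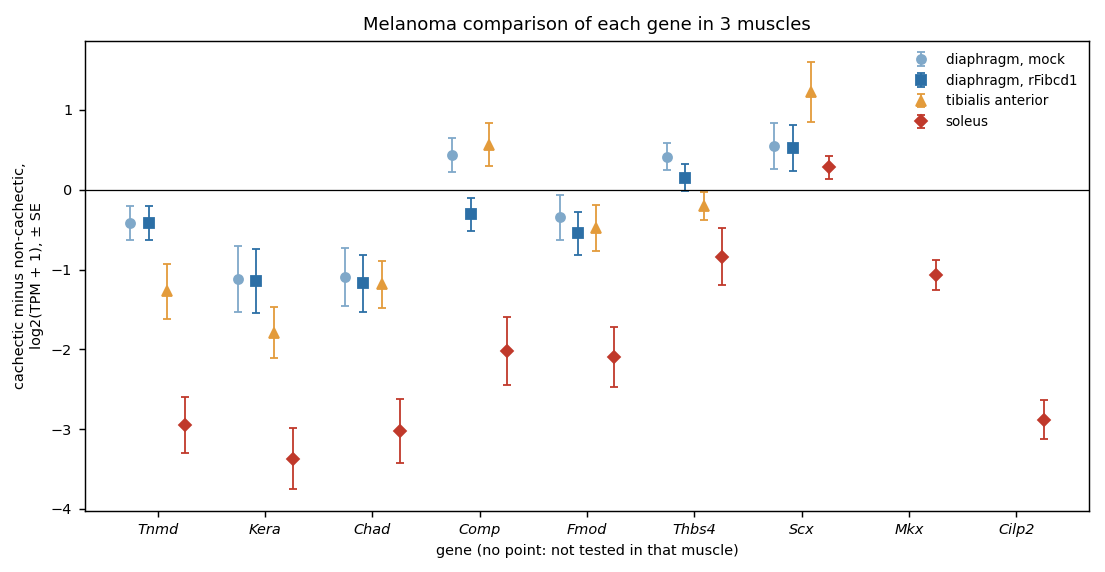
Log2 fold change, cachectic against non-cachectic, on the log2(TPM + 1) scale with its standard error for each gene in mock diaphragm, rFibcd1 diaphragm, tibialis anterior and soleus. Kera reaches -3.37 in soleus and -1.12 in mock diaphragm, and Scx lies above 0 in all 4 comparisons.

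The design also asks whether the melanoma effect differed between muscles. These differences helped to choose the genes and are a description. The effect was less negative, or more positive, in diaphragm than in soleus for all 9 genes, and limma called 6 of 9, a count that the choice of the list partly fixes, against 2.52% of all genes called and 1.95% called in that direction. The called differences were 2.54 for Cilp2, 2.53 for Tnmd, 2.46 for Comp, 2.25 for Kera, 1.25 for Thbs4 and 1.11 for Mkx on the log2 scale. Kera was called in this difference in 3 of 9 other settings, and lost the call without any 1 of 12 libraries, at 1.93 to 2.26, namely cachectic mock diaphragm 10, non-cachectic mock diaphragm 4, 6, 8 or 9, cachectic soleus 1, 2 or 3 and non-cachectic soleus 1, 3, 4 or 5. Thbs4 lost it without cachectic soleus library 1, 2 or 3 or non-cachectic soleus library 3, at 1.04 to 1.22.

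Mkx and Cilp2 passed the filter through non-cachectic soleus, where they were high. Between tibialis anterior and soleus 6 of 9 were called, again partly by choice, against 20.4% of all genes and 19.1% in that direction. They were Comp at 2.59, Cilp2 at 2.07, Chad at 1.84, Tnmd at 1.68, Fmod at 1.62 and Mkx at 1.11. Chad, at 1.55 to 1.95, and Fmod, at 1.28 to 1.64, each lost the call without any 1 of 14 libraries. For both these were cachectic soleus 1, 2 or 3, non-cachectic soleus 1, 3, 4 or 5, non-cachectic tibialis anterior 2, 3, 4 or 5 and cachectic tibialis anterior 4 or 5, with cachectic tibialis anterior 3 for Chad and 1 for Fmod. After median-ratio scaling 3 of 9 were called, with the median of all genes moving from 0.30 to 0.00. Between diaphragm and tibialis anterior 0 of 9 were called by limma, against 5.04% of all genes, and Tnmd alone had an unadjusted p under 0.05, with a difference of 0.86.

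In the table, column numbers 6 to 10 and 61 to 65 recur in mock diaphragm, tibialis anterior and soleus. Their libraries deviated together from the group means over 13501 genes, with a median correlation of 0.284 between diaphragm and tibialis anterior, 0.255 between diaphragm and soleus and 0.371 between the limb muscles, against -0.10 to -0.03 for unlike numbers. Blocking on that number called 8 of 9 genes between diaphragm and soleus and 7 of 9 between tibialis anterior and soleus. Over all 13501 genes it raised the counts called as well, from 340 to 994 and from 2750 to 5569. Number 8 was the lowest of the 5 cachectic libraries for 8 of 9 genes in soleus, 5 of 9 in tibialis anterior and 3 of 9 in diaphragm, and Kera in it was at 0.199 TPM in diaphragm, 0.0342 TPM in tibialis anterior and 0.0320 TPM in soleus. In diaphragm number 9 was lowest for Tnmd, Fmod and Mkx, and in tibialis anterior number 8 was highest for Scx, at 33.7 TPM. The share of mitochondrial transcripts in number 8 was also the lowest of the 5 in each muscle, at 33.2%, 25.1% and 24.1%, and the part of that share in these values was not tested. In non-cachectic mice number 62 was the lowest of the 5 in soleus for 9 of 9 genes, and 64 in diaphragm for 8 of 9. In tibialis anterior no number was lowest most often. There 63 was lowest for Tnmd, Kera and Scx, 64 for Fmod, Thbs4 and Mkx, and 65 for Chad, Comp and Cilp2.

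The mean mitochondrial share was lower with cachexia, at 47.5% ± 2.97 (SD, n = 9) and 38.1% ± 3.18 (SD, n = 10) in mock diaphragm, at 43.9% ± 2.95 and 37.6% ± 5.62 (SD, n = 10 each) in rFibcd1 diaphragm, at 48.5% ± 1.80 and 38.8% ± 8.12 (SD, n = 5 each) in tibialis anterior, and at 41.1% ± 2.00 and 30.5% ± 3.92 (SD, n = 5 each) in soleus. The ranges overlapped in rFibcd1 diaphragm and were separate in the other 3 comparisons. The part of this share in the fold changes of the 9 genes was not tested.

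The levels of non-cachectic diaphragm and tibialis anterior enter the differences between muscles that helped to choose the genes, and they too are a description. Mean TPM was higher in diaphragm for 8 of the 9 genes, the exception being Cilp2. Thbs4 ran from 48.1 over 69.5 to 92.3 TPM in the 9 diaphragm libraries and was at 37.5, 44.0, 30.9, 28.5 and 38.6 TPM in tibialis anterior, with no overlap and a ratio of mean TPM of 1.96. Ranges were separate in that direction for 56.6% of all genes. The log2 fold change was 0.94 (SE 0.23).

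Mkx was at 0.563 ± 0.167 TPM (SD, n = 9) and 0.211 ± 0.0849 TPM (SD, n = 5), also without overlap, at 0.36 (SE 0.12). It was below 1 TPM in every one of these libraries and entered the fit through its soleus values. Chad was at 0.98 (SE 0.41) and Comp at 0.73 (SE 0.34), with overlapping ranges. Chad lost the call without diaphragm library 1, 3, 5 or 7 or tibialis anterior library 2 or 5, at 0.73 to 0.95, and Comp lost it without any 1 of 25 of the 39 libraries, which included all 5 of non-cachectic tibialis anterior and of non-cachectic soleus, at 0.64 to 0.78. Tnmd, Kera, Fmod and Scx were not called, nor was Cilp2, at -0.40 (SE 0.18).

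Limma called 4 of the 9 genes, Thbs4, Chad, Comp and, through its soleus values, Mkx, against 72.5% of all genes, 64.0% called higher and 8.52% called lower. The median of all genes was 0.44, and median-ratio scaling brought it to -0.01. On that scale Thbs4, Chad and Comp, at 0.37, 0.56 and 0.31, were not called, while Mkx was called at 0.24 and Cilp2 was called lower at -0.72. Quantile normalization reversed Mkx, to -0.28.

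Within the groups the genes varied together from one diaphragm library to the next. After the group mean was removed from each gene, the log2(TPM + 1) values of the 39 diaphragm libraries gave a Pearson correlation above 0.5 in 18 of the 36 pairs of genes, against 23.7% of all pairs of the 13103 genes that averaged 1 TPM or more. A permutation test within groups, with 100000 permutations and adjustment over the 36 pairs, passed for 26 pairs by Pearson and 20 by Spearman correlation. The share of all gene pairs that would pass this test is not given here. The counts of passing pairs therefore cannot be set against it and do not set these genes apart from others. Paired values share a library and its normalisation.

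The 10 pairs among Tnmd, Kera, Chad, Fmod and Cilp2, a set picked after the values were seen, had correlations from 0.763 to 0.919, each with a permutation p for r of 1e-05, the smallest these permutations can give, or 3e-05 after adjustment. Kera and Chad were the closest pair, with r = 0.919, Spearman's rho = 0.888 and r = 0.907 without the 2 libraries farthest from the median of Kera. Kera with Fmod gave 0.910, Chad with Cilp2 0.903 and Comp with Fmod 0.828. In the 26 high-state diaphragm libraries the same 10 pairs ran from 0.668 to 0.912.

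Scx did not vary with the others. Its 8 pairs ran from -0.22 to 0.20 over all diaphragm libraries and from -0.26 to 0.28 in the high-state ones, and none passed the permutation test. For Kera and Scx, r was -0.05 and rho 0.01, and the permutation p for r was 0.781, or 0.879 after adjustment. Thbs4 was intermediate, with pairs from -0.02 to 0.488. In the 20 limb libraries, centred in the same way, the pairs of the 5 genes ran from 0.482 to 0.922 and those of Scx from -0.31 to 0.03, while Thbs4 reached 0.818 with Kera. There 27 of the 36 pairs exceeded 0.5, against 43.0% of all pairs of 11787 genes.

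**Figure D3:**
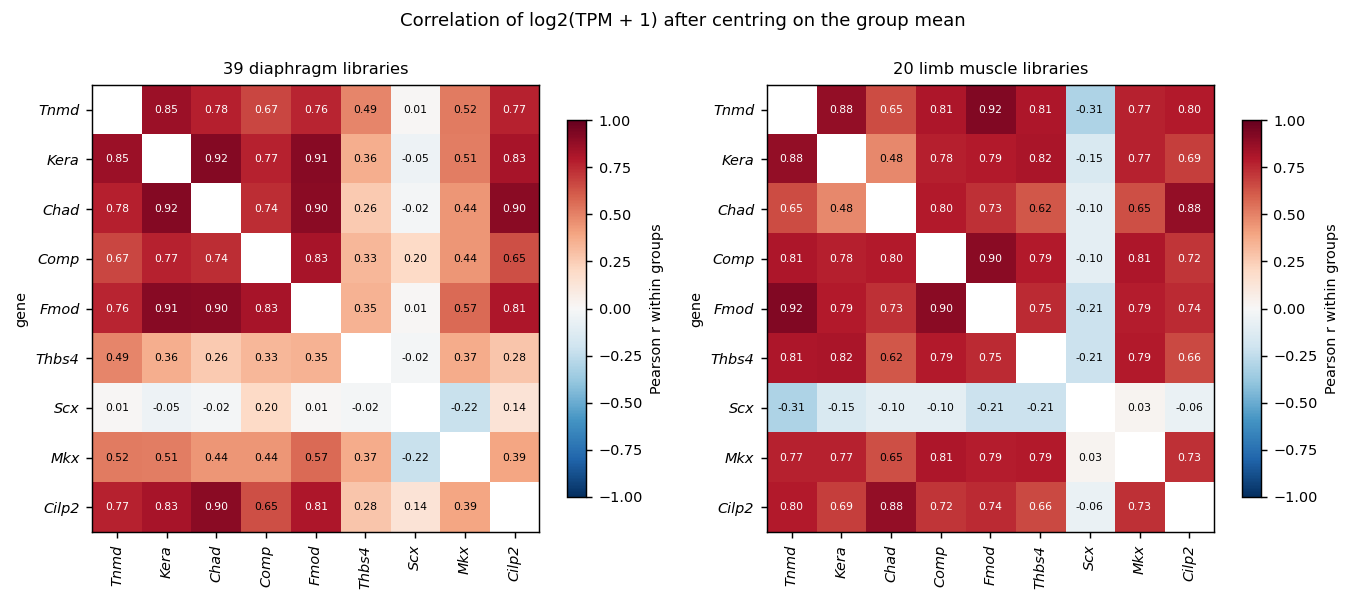
Pearson correlation of each pair of the 9 genes over the 39 diaphragm libraries and over the 20 limb libraries, after the group mean was removed. Scx stands apart with pairs from -0.22 to 0.20 in diaphragm, while Tnmd, Kera, Chad, Fmod and Cilp2 form a block above 0.76.

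**Figure D4:**
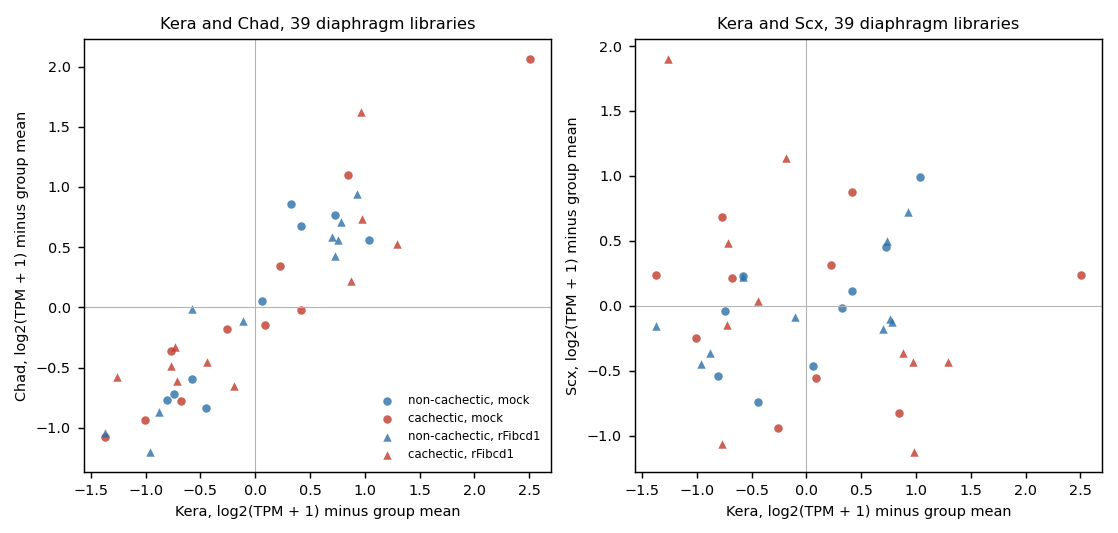
Kera against Chad and Kera against Scx in the 39 diaphragm libraries, as log2(TPM + 1) minus the group mean, with groups marked. Kera and Chad follow one line (r = 0.919) and Kera and Scx do not (r = -0.05).

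Genes outside the list were ranked by the correlation of their group-centred values with the mean of the genes that averaged 1 TPM or more. Over the 39 diaphragm libraries and 13103 genes the closest were Col11a2 (0.676), Sbk2 (0.667), Fam131a (0.664), Ramp1 (0.644) and Wdyhv1 (0.636), followed by Cebpzos, Pdlim7, Gmpr, Gm28610 and Col12a1 down to 0.593. Col11a2 encodes a chain of a fibrillar collagen and Col12a1 one of a fibril-associated collagen. Over the 20 limb libraries and 11787 genes they were Abi3bp (0.934), Serpinf1 (0.925), Adcy7 (0.914), Mfap4 (0.910) and Itgbl1 (0.907), followed by Cercam, Antxr1, B3gnt9, Myoc and Lpar1 down to 0.864. The 2 sets of 10 shared no gene. Of the 10 limb genes, Abi3bp, Serpinf1 and Mfap4 encode secreted proteins, and the 10 were not tested for a shared function.

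Other genes of tendon matrix, a list of 33 of which 32 were in the table, were read beside the 9 genes. Of 31 fitted in soleus, 13 were called lower and none higher, against 7.54% and 17.5% of all genes, with a median log2 fold change of -0.63. The chains of type I collagen, the main fibre of tendon, were lowest. Col1a1 was at 117 ± 31.2 TPM and 26.1 ± 20.4 TPM without and with cachexia, at -2.33 (SE 0.35), and Col1a2 at 97.2 ± 23.3 TPM and 21.8 ± 15.7 TPM, at -2.30 (SE 0.35). At the other end Tppp3, a marker of the tendon sheath, was at 126 ± 14.1 TPM and 201 ± 103 TPM and Thbs3 at 7.63 ± 1.06 TPM and 11.3 ± 3.41 TPM (SD, n = 5 each), neither called.

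In tibialis anterior 9 of 25 of these genes were called higher and none lower, against 56.4% of all genes higher, with a median of 0.31 against 0.41 over all genes. In mock diaphragm 6 of 30 were called higher and none lower, against 30.9% of all genes higher, with a median of 0.02 against 0.20, and after rFibcd1 0 of 30 were called by limma, against 9.11% of all genes, with 3 at an unadjusted p under 0.05, against 3350 of all 13426 genes. Thbs3 was called higher in mock diaphragm at 0.77 (SE 0.14) and in tibialis anterior at 0.88 (SE 0.21). Col1a1 was at -0.52 (SE 0.38) and -0.67 (SE 0.46) in the same muscles, not called.

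On the muscle side of the junction, 9 of 19 genes were called higher and 4 lower in soleus, 6 and 5 of 18 in tibialis anterior, 4 and 2 of 19 in mock diaphragm, and 2 and 0 of 19 in rFibcd1 diaphragm, where 10 of 19 had an unadjusted p under 0.05 in limma, against 3350 of all 13426 genes. Over all genes the shares called higher and lower were 17.5% and 7.54% in soleus, 56.4% and 3.78% in tibialis anterior, and 30.9% and 2.67% in mock diaphragm, and 9.11% were called in either direction in rFibcd1 diaphragm. Col22a1, the collagen found at the myotendinous junction, was at 14.2 ± 2.35 TPM and 5.07 ± 2.53 TPM in non-cachectic and cachectic soleus, at -1.45 (SE 0.31), and was called lower in tibialis anterior as well, at -0.82 (SE 0.20). Ankrd1, a stretch-responsive protein of the sarcomere, was at 18.8 ± 6.84 TPM and 135 ± 105 TPM in soleus, called higher at 2.58 (SE 0.40). Csrp3, the muscle LIM protein, was called higher in soleus, at 422 ± 96.2 TPM and 1816 ± 1025 TPM (1.94, SE 0.35), and lower in tibialis anterior (-1.77, SE 0.71). Itgb1bp2, melusin, was called lower in soleus at -0.67 (SE 0.17), in tibialis anterior at -1.58 (SE 0.45) and in mock diaphragm at -0.43 (SE 0.15), and was not called in rFibcd1 diaphragm, at -0.34 (SE 0.14).

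Genes of the TGF-beta and FGF pathways, which act on tendon cells, had 1 of 13 called lower and none higher in soleus, against 7.54% and 17.5% of all genes. That gene, Smad3, a transducer of TGF-beta, was at 38.5 ± 7.03 TPM and 24.9 ± 5.60 TPM in soleus (-0.62, SE 0.16) and was called higher in tibialis anterior (0.76, SE 0.13). In tibialis anterior 8 of 14 were called higher and in mock diaphragm 5 of 14, shares near the 56.4% and 30.9% of all genes. The receptor genes Tgfbr3 and Tgfbr1 were called higher in tibialis anterior, at 1.19 (SE 0.22) and 0.85 (SE 0.18), and were not called in soleus, at 0.28 (SE 0.16) and 0.24 (SE 0.14).

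Markers of other cells were read beside these values. Of 9 fitted markers of muscle fibroblasts, 2 were called lower in soleus, Clec3b at -1.03 (SE 0.29) and Dpp4 at -0.87 (SE 0.22), against 7.54% of all genes called lower, and their list of 10 summed to 656 to 1046 TPM in non-cachectic and 340 to 967 TPM in cachectic soleus. The 9 tendon genes summed to 556 to 805 TPM and 114 to 416 TPM in the same libraries, without overlap. In tibialis anterior the fibroblast list summed to 183 to 289 TPM and 259 to 524 TPM, and 3 of 8 were called higher, against 56.4% of all genes. The part of fibroblast number in the tendon values was not tested.

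Markers of cartilage and bone, where Chad, Comp and Cilp2 are also made, were low in soleus. The 10 markers summed to 3.91 to 10.8 TPM in non-cachectic and 3.62 to 6.93 TPM in cachectic soleus. Of them 8 were below 1 TPM in every non-cachectic soleus library, the exceptions being Col2a1 and Sox9. In cachectic soleus 9 were below 1 TPM in every library, the exception being Sox9. Ibsp and Bglap reached 1 TPM in at least 1 library of each tibialis anterior group. Sox9, which tendon cells also express, was the 1 marker fitted in soleus, at 0.31 (SE 0.25), not called. Mesothelium, the lining of the diaphragm, summed to 63.1 to 318 TPM over 7 markers in diaphragm and to at most 5.77 TPM in limb muscles, with none of 7 called by limma, or at an unadjusted p under 0.05, in mock or rFibcd1 diaphragm, where 33.5% and 9.11% of all genes were called. Schwann cell and adipocyte markers gave 0 of 6 called each by limma in soleus, with 1 each at an unadjusted p under 0.05, and of 7 muscle fibre genes Myh7 and Acta1 were called higher, against 17.5% of all genes higher and 7.54% lower. In tibialis anterior 4 of the 7 muscle fibre genes were called lower and 1 higher, with a median of -0.55, against 3.78% and 56.4% of all genes and their median of 0.41. There 4 of 6 Schwann cell markers were called higher and none lower, and 0 of 4 adipocyte markers were called by limma, with 0 at an unadjusted p under 0.05.

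**Figure D5:**
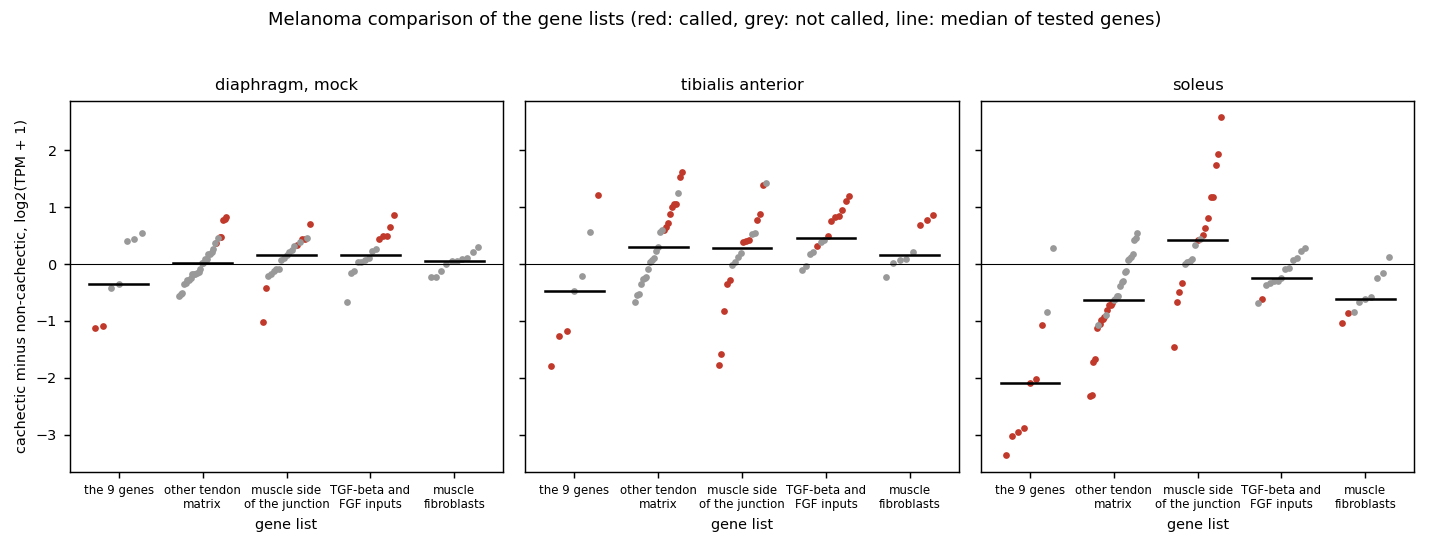
Log2 fold change, cachectic against non-cachectic, of each fitted gene of the 9 and of the other tendon, junction, pathway and muscle fibroblast lists. Panels show mock diaphragm, tibialis anterior and soleus, with the median of each list. In soleus the 9 genes have a median of -2.09, other tendon matrix genes -0.63 and junction genes 0.42.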

How the data were processed

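Total RNA of 59 muscle samples in 8 groups was sequenced. The labels and the methods name different TruSeq kits, of which the labels call theirs stranded, and different Illumina instruments. The authors aligned reads to GRCm38 with CLC Genomics Workbench 12.0.1 and deposited TPM per gene, used here as deposited (59 columns, 0 unused). Columns name a group but no labelled replicate, so libraries were numbered within a group in column order. Genes at 1 TPM or more in as many samples as the smallest group of a fit were kept, and log2(TPM + 1) was fitted with limma 3.58.1 in R 4.3.3 (empirical Bayes with trend, Benjamini-Hochberg adjustment over all genes fitted, two-sided, called at an adjusted p under 0.05), in place of the Kruskal-Wallis and Dunn tests of the study. Fits held the 39 diaphragm samples, the 10 samples of each limb muscle, or the 39 samples without rFibcd1. Fold changes on this scale understate those of low genes. p-values measure the spread between these samples. Shares of all genes called are after adjustment, and no share at an unadjusted p is given except where stated. The 9 genes and all lists were chosen with earlier results of these data known. From each list the genes with the 2 highest and 2 lowest fold changes in soleus were named, with the 10 genes most alike. One gene so named is not reported here. Alternatives were a pseudocount of 0.1, no filter, a filter at a mean of 5 TPM, array weights, scaling by median ratios, quantile normalization, the Dunn test, only the groups compared, all 59 samples in one fit, library state (Pcna-ps2 split at 1 TPM), each library left out, and, added after seeing the data, a block on the column number. The fits were tested on simulated data with 200 changed genes. Promoters came from RefSeq and positions from GENCODE M21. Cnmd of the tendon list was not analysed here.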

Additional observations from a re-analysis of the deposited data

Results flagged for a closer look

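In each group of 4 to 10 libraries the gap of the highest or lowest library to its nearest neighbour was set against the whole range of the group on the log2(TPM + 1) scale, by Dixon's criterion, for each of the 9 genes. Of 72 combinations of gene and group 3 passed, and chance passes about 1 in 20. Comp in non-cachectic soleus had 1 library at 41.3 TPM with the next at 61.8 TPM, a gap of 0.816 of the range on that scale. Comp in cachectic rFibcd1 diaphragm had 1 library at 2.16 TPM with the next at 4.09 TPM, a gap of 0.689 of the range on that scale. Cilp2 in cachectic rFibcd1 diaphragm had 1 library at 1.16 TPM with the next at 0.534 TPM, a gap of 0.539 of the range on that scale.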

How the results depend on the processing

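Values below count the genes of the 9 that were called. In soleus the count was 7, and 7 to 8 with 1 library left out, and no other setting moved it past 1.5 times. In mock diaphragm the count was 2, with 1 without the filter, 5 with array weights, 1 with library state as a term, 0 among high-state libraries and 1 to 3 with 1 library left out. In rFibcd1 diaphragm it was 1, with 0 without the filter, with array weights, by the Dunn test, with only the groups compared and among high-state libraries, 2 after quantile normalization and with all 59 samples in one fit, and 0 to 2 with 1 library left out. In tibialis anterior it was 4, with 1 of the 3 genes that passed a mean of 5 TPM and 4 to 5 with 1 library left out. The difference between tibialis anterior and soleus went from 6 to 3 after median-ratio scaling and after quantile normalization, and to 4 to 7 with 1 library left out. The difference between diaphragm and soleus ran from 4 to 8 with 1 library left out, and that between diaphragm and tibialis anterior stayed at 0. The level of diaphragm against tibialis anterior went from 4 to 2 without the filter, 2 after median-ratio scaling, 7 with array weights, 1 by the Dunn test and 2 to 5 with 1 library left out, being 2 without non-cachectic mock diaphragm library 7 or tibialis anterior library 2. Mkx in that comparison reversed to -0.28 after quantile normalization. The level of diaphragm against soleus went from 9 to 2 by the Dunn test and stayed at 9 with 1 library left out. The cause of these changes was not tested. Over all genes the same settings, in that order, called 4260, 7341, 2059 and 805 instead of 4501 in mock diaphragm. In rFibcd1 diaphragm they called 966, 1009, 0, 335, 0, 1639 and 1326 instead of 1223. Between tibialis anterior and soleus 1551 and 844 were called instead of 2750. Levels of diaphragm gave 11362, 9578, 11343 and 6884 instead of 9790 against tibialis anterior, and 1178 instead of 5243 against soleus. The effects of rFibcd1 and the interaction stayed at 0 with each library left out.

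Over all genes the counts called were 4501 in mock diaphragm (805 to 7341 over the alternatives), 1223 in rFibcd1 diaphragm (0 to 1639), 6680 in tibialis anterior (4422 to 7704) and 2999 in soleus (2236 to 3350). They were 6 (0 to 789) and 56 (0 to 5358) for rFibcd1 in cachectic and non-cachectic diaphragm and 3 (0 to 150) for the interaction, 340 (157 to 994), 681 (352 to 2317) and 2750 (844 to 5569) for the differences of diaphragm against soleus, diaphragm against tibialis anterior and tibialis anterior against soleus, and 9790 (6013 to 11362), 5243 (1178 to 8110) and 9385 (4990 to 11081) for the levels of diaphragm against tibialis anterior, diaphragm against soleus and soleus against tibialis anterior. Of 4622 recomputed values of the 9 genes, 133 had the other sign among values not called, which were of size 0.46 or less before the change of setting, and 1 among the 48 called. Blocking on the column number, a replicate block across muscles added after seeing the data, called 8 instead of 6 for diaphragm against soleus, 7 instead of 6 for tibialis anterior against soleus, 5 instead of 4 for the level of diaphragm against tibialis anterior, and changed no other count of the 9 genes. Over all genes the block called 994 instead of 340, 5569 instead of 2750 and 10388 instead of 9790 in these comparisons. The numbers paired libraries across muscles only, since cachectic and non-cachectic mice share none of them within a muscle, and they are not the labelled replicate numbers. TPM gives no read counts, so the counting error of low values such as Mkx is unknown.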
